A study of Rattus norvegicus with 15 samples.

Results

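The genes described here code for the UDP-glucuronosyltransferases (UGT), the sulfotransferases (SULT) and the glutathione transferases (GST) outside the alpha class, measured in rat digestive mucosa. Members were all non-control probes whose gene name on the array began with Ugt1, Ugt2, Sult or Mgst, or with Gst followed by k, m, o, p, t or z. The rule found 50 probes for 39 genes, of 41012 probes for 35583 gene names. There were 4 UGT1, 8 UGT2, 11 SULT and 3 microsomal GST genes, and 13 GST genes of the mu, pi, theta, omega and kappa classes. The 9 genes with several probes (20 probes) were each represented by the brightest.

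Mucosal cell suspensions had been prepared from the stomach and colon and from the duodenum, jejunum and ileum, with 3 samples for each of the 5 segments. The labels give untreated male Sprague Dawley rats and no ages, and for ileum 3 neither strain nor sex. Cells were freed from everted bowel with pronase and separated by elutriation, and their RNA was read on Agilent arrays with 1 dye per sample. The isolations are called independent but no animals are named, so p-values measure only the spread between isolations.

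Conjugation gives a lipophilic compound a polar group, after which it can be pumped out of the cell. UGTs sit in the endoplasmic reticulum and transfer glucuronic acid from UDP-glucuronic acid. SULTs are cytosolic and take sulphate from the donor PAPS. GSTs couple electrophiles to glutathione, in the cytosol or, for the microsomal GSTs, in membranes. In the gut these enzymes meet dietary phenols and swallowed drugs before the liver does. They also meet steroids and bile acids.

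A level below is a probe's background-subtracted intensity divided by the 75th percentile of intensities in its sample, called relative signal. Signals of different probes cannot be set against each other. Differences are log2 values ± standard error from limma, with Benjamini-Hochberg adjusted p-values over 33698 genes and a call at an adjusted p under 0.05. "Small bowel" is the mean of the duodenum, jejunum and ileum, and "proximal segments" the mean of the duodenum and jejunum. In such bulk samples, fewer cells of a type and less RNA per cell cannot be told apart.

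Median intensities ranged from 91.4 to 1037, and the share of probes well above background from 44.2% in ileum 1 and 52.2% in jejunum 1 to 97.1% in stomach 3. Samples of a segment correlated at 0.916 to 0.988 over genes. The software's limit for well above background was lower on gastric than on small bowel arrays (multipliers of 2.6 and 13) and is not given in the colon files used here. No slide or scan day of gastric, ileal or colonic samples held another segment, all gastric samples shared 1 scan day and all colonic ones 1 slide, so these cannot be told apart from the segment. Colon 2 and colon 3 had the same dye on that slide and different scan days, and whether they are separate samples was not settled; they correlated at 0.97, and colonic samples in all at 0.97 to 0.983. Colonic results below count 3 samples, and p-values would be too small if those were 1; averaging them left 16 of 17 colon calls. Of the 39 members, all were tested, 24 were well above background in all 15 samples and 0 were saturated. Enterocyte markers (8 genes) averaged -2.64 to -2.36 in gastric, 4.13 to 4.80 in duodenal, 5.04 to 7.14 in jejunal, 2.74 to 4.42 in ileal and -0.80 to -0.51 in colonic samples on the log2 scale. Fibroblast markers (6 genes) averaged 1.55 to 1.70 in gastric samples and -2.18 to -0.80 elsewhere, and dissociation stress genes (6) -0.30 to -0.16 in gastric, 2.91 to 4.66 in small bowel and 5.10 to 5.33 in colonic samples. Their part in the results was not tested.

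Probes of members with large differences are shown to identify the transcripts read, each with 60 bases written 5′ to 3′. Positions are those of the scanner files, which name no build. Probes for Sult1c3 (chr9:531821-531880, plus strand, listed as Sult1c1 on the array), Sult1c2 (chr9:994117-994309, plus) and Sult1c2a (chr9:1030881-1030940, minus) come from 1 gene family. RefSeq (GRCr8) puts Sult1c3 on the minus strand, opposite to its probe, and Sult1c2 and Sult1c2a on the strands of theirs. Whether the Sult1c3 probe reads the transcript of that gene was not tested.
Sult1c3: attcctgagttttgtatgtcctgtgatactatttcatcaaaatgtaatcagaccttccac
Sult1c2: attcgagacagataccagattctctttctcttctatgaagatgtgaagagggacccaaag
Sult1c2a: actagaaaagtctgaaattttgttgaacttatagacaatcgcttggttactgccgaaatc
Mgst1 was read at chr4:175500069-175500128, Ugt2b35 at chr14:22478931-22480029 and Ugt2b10 at chr14:22743224-22743283, all on the plus strand.
Mgst1: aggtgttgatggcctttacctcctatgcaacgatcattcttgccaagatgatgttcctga
Ugt2b35: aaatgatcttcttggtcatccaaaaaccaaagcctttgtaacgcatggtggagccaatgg
Ugt2b10: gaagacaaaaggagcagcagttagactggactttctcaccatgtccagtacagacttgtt
The probes for Ugt2b37 (chr14:22420991-22421050, plus) and Ugt2b (chr14:22178777-22178836, plus) share 51 of 57 aligned bases, and transcripts of the pair may bind both. Capitals mark bases of the Ugt2b probe that differ or lie outside the overlap.
Ugt2b37: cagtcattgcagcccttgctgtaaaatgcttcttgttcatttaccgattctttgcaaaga
Ugt2b: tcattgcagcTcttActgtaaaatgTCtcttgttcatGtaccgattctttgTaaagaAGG
Sult2a2 was read at chr1:74616251-74616310, minus strand, and is shown with a dimmer probe of the gene that overlaps it (chr1:74616270-74616329), since the pair gave different sizes. The pair shared 39 of 41 aligned bases, and capitals mark bases of the dimmer probe that differ or lie outside the overlap.
Sult2a2: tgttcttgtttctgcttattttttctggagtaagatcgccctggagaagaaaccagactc
Overlapping Sult2a2 probe: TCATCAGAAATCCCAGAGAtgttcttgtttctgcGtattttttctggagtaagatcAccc
Both Ugt1a2 probes lay 2978 and 5874 bases downstream of the Ugt1a1 probe. In RefSeq (GRCr8) Ugt1a2 starts upstream of Ugt1a1, and 8 UGT1A genes have 1 shared end. The Ugt1a2 probes lie toward that end and may read several UGT1A transcripts.

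Over the 5 segments, 27 of 39 members (69.2%) differed by limma's F test, against 42.1% of all genes. The stomach against the small bowel gave 7 higher and 14 lower members (53.8%, against 27.3% of all genes, 15.5% higher and 11.8% lower). The colon against the small bowel gave 4 higher and 13 lower (43.6%, against 25.7%, 12.5% higher and 13.2% lower). In the ileum against the proximal segments limma called 0 members higher and 9 lower (23.1%, against 4.28%, 1.79% higher and 2.49% lower). Beside this, 3 of 8 enterocyte markers were lower in the ileum (median -1.67), and their part in the ileal calls was not tested. For the duodenum against the jejunum it called 2 higher and 0 lower (5.13%, against 0.555%, 0.255% higher and 0.3% lower).

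Median differences over the members were -0.39, -0.27, -0.43 and 0.08 in these 4 contrasts, beside 0.28, 0.00, 0.09 and -0.02 for all genes. Samples of both sides did not overlap for 13, 12, 16 and 7 members, against 24.8%, 27.7%, 12.2% and 6.96% of all genes. The stomach and colon contrasts share the small bowel samples. Single samples moved some counts: the ileum had 3 calls without duodenum 1 and 5 without ileum 3, and the colon 11 without colon 1. With only the segments compared in the fit, the ileum calls left were those of Ugt2b15, Ugt2b35 and Ugt2b37. In such fits Sult1d1, Sult2a1, Sult5a1 and Ugt2b were not called in the colon, and Ugt1a2 was not called in the stomach. With the scan day as random block the stomach had 13 calls, and Ugt1a2, Ugt2a3, Sult2a1, Sult2a2, Gstm1, Gstm7, Gstp1 and Gsto1 were not among them.

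**Figure D1:**
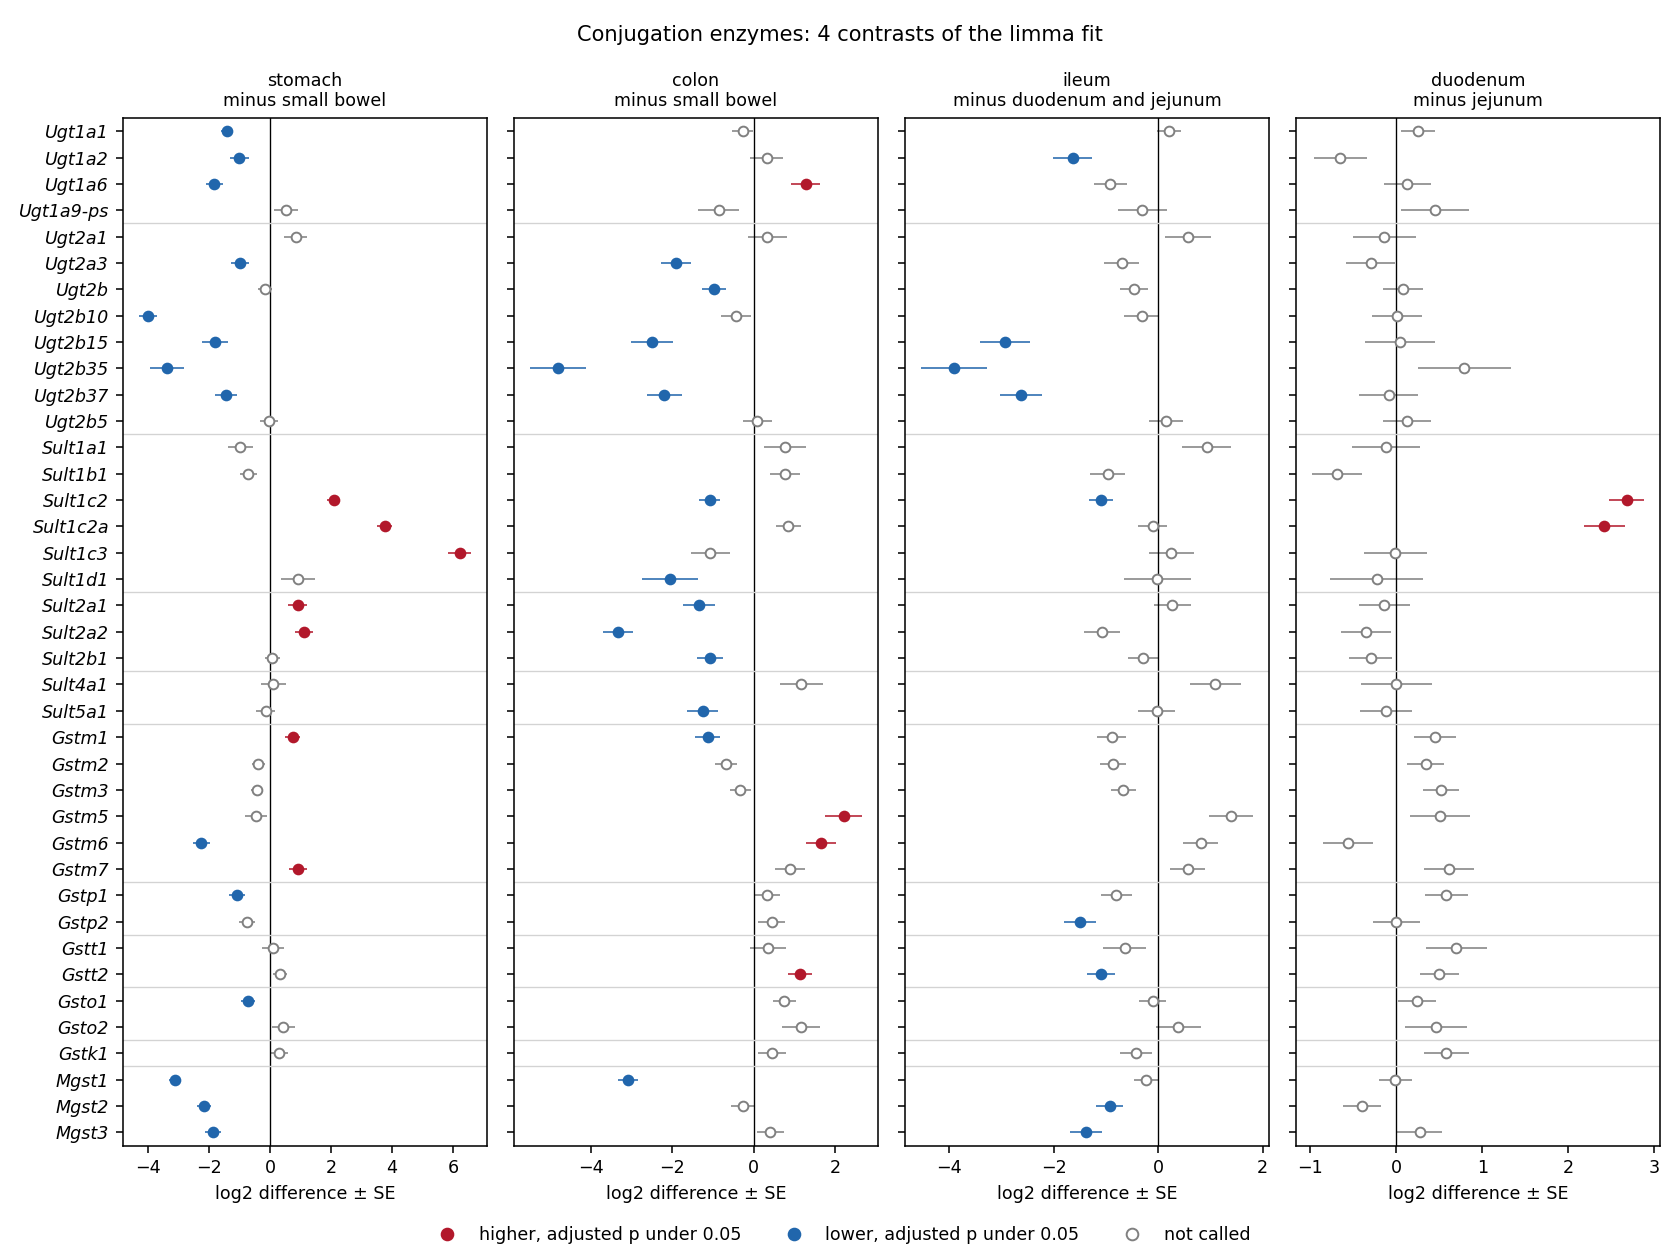
Log2 difference ± standard error of the 39 members (rows, by class) in 4 contrasts of the limma fit (columns); coloured points passed an adjusted p of 0.05 and open grey points did not. The highest value is Sult1c3 in the stomach (6.21) and the lowest Ugt2b35 in the colon (-4.80).

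In the stomach, 3 of 4 UGT1 and 5 of 8 UGT2 members were lower than in the small bowel and 0 UGT2 members were higher. Of all genes, 11.8% were lower there and 15.5% higher. Ugt2b10 read 0.113, 0.121 and 0.128 in gastric samples, 2.34, 2.38 and 1.48 in duodenal samples and 4.12, 1.35 and 1.59 in jejunal samples. Ileal samples read 1.38, 2.08 and 1.74, and colonic samples 1.18, 1.46 and 1.56. Gastric samples lay below all others for this gene of the steroid-conjugating UGT2B family, and the other 4 segments overlapped. The stomach was 16.0-fold lower (-4.00 ± 0.29, adjusted p = 1.71e-08). In the colon the difference was -0.43 (adjusted p = 0.42) and in the ileum -0.32 (adjusted p = 0.647), neither called.

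Ugt2b15, Ugt2b35 and Ugt2b37 were lower in the stomach, the colon and the ileum, the only 3 members called lower in 3 contrasts. All 9 calls held under every alternative that gave a value, though not their size. The small bowel reference of the stomach and colon includes the ileum. Pairwise, limma called none of the 3 between the ileum and the stomach (adjusted p = 0.452 to 0.872) or the colon (adjusted p = 0.0791 to 0.622). Ugt2b35 read 0.141, 0.103 and 0.130 in gastric samples, 4.52, 5.88 and 2.21 in duodenal samples and 5.99, 1.19 and 2.01 in jejunal samples. Ileal samples read 0.356, 0.458 and 0.0730, and colonic samples 0.0541, 0.0682 and 0.0219. The gastric, ileal and colonic samples all lay below the duodenal and jejunal ones, and in both the ileum and the colon only 1 of 3 samples was well above background. The ileum was 15.0-fold below the proximal segments (-3.91 ± 0.63, adjusted p = 0.00225). Against the small bowel the colon was 27.8-fold lower (-4.80 ± 0.69, adjusted p = 9.39e-05) and the stomach 10.4-fold lower (-3.38 ± 0.55, adjusted p = 0.000166). With normexp, another background correction, the colon difference was -1.84 for Ugt2b35 and -1.30 for Ugt2b15. Hepatocyte markers, of a cell type rich in UGT2B and SULT2 enzymes, were lower in the colon too (4 of 5, median -1.34), at -2.23 to -2.05 in colonic and -1.11 to -0.34 in small bowel samples. In the stomach (median 0.27) and the ileum (median -0.55) 0 of 5 were called. The part of these markers was not tested.

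Ugt2b15 read 0.210, 0.191 and 0.210 in gastric samples, 1.47, 1.57 and 1.00 in duodenal samples and 2.25, 1.33 and 0.885 in jejunal samples. Ileal samples read 0.0669, 0.385 and 0.307, and colonic samples 0.121, 0.101 and 0.132. Ileal samples lay below all proximal ones, and ileum 1, which was not well above background, below every other sample. The difference was -2.93 ± 0.48, adjusted p = 0.00234 in the ileum, -2.49 ± 0.52, adjusted p = 0.0022 in the colon and -1.81 ± 0.42, adjusted p = 0.00329 in the stomach. Ugt2b37 read 0.636, 1.10 and 0.625 in gastric samples, 3.32, 3.60 and 3.30 in duodenal samples and 7.78, 2.58 and 3.01 in jejunal samples. Ileal samples read 0.423, 0.955 and 0.724, and colonic samples 0.517, 0.530 and 0.268. The proximal samples again lay above all others, with jejunum 1 the highest. Its differences were -2.63 ± 0.40, adjusted p = 0.00133 in the ileum, -2.19 ± 0.44, adjusted p = 0.00148 in the colon and -1.45 ± 0.35, adjusted p = 0.00441 in the stomach. On the array these genes were listed as Ugt2b3 (Ugt2b15), Ugt2b4 (Ugt2b35) and Ugt2b5 (Ugt2b37). Another probe listed as Ugt2b5, with an accession that RefSeq did not match, kept that name and was counted as a member of its own. It read 0.451 to 0.900 over all samples and was not called, at 0.15 in the ileum (adjusted p = 0.846), 0.09 in the colon (adjusted p = 0.876) and -0.04 in the stomach (adjusted p = 0.937). This probe was well above background in all 15 samples. It lay at chr14:22422764-22422822, on the same strand as the Ugt2b37 probe (chr14:22420991-22421050, plus) and close to it. Whether both probes read 1 gene was not tested.

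Promoters of these 3 genes and of Ugt2b, their neighbour on chromosome 14, are shown because the 3 genes were lower in the same contrasts. Windows run from 250 bases before to 50 after the gene start (RefSeq, GRCr8, plus strand), and capitals mark the longest run of bases, 31, present in the windows of Ugt2b15, Ugt2b35 and Ugt2b37.
Ugt2b15 (chr14:21122616-21122915): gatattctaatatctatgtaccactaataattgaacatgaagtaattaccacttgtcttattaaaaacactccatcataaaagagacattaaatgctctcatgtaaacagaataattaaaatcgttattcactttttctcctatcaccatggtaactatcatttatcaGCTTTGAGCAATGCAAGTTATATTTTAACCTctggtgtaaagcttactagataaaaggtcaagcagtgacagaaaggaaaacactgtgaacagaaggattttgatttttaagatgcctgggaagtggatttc
Ugt2b35 (chr14:21208191-21208490): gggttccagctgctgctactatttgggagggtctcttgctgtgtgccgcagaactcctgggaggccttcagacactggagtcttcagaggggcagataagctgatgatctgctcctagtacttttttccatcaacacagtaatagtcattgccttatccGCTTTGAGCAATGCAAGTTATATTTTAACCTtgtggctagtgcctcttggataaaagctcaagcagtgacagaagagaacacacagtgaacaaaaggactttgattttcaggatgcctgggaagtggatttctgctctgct
Ugt2b37 (chr14:21171886-21172185): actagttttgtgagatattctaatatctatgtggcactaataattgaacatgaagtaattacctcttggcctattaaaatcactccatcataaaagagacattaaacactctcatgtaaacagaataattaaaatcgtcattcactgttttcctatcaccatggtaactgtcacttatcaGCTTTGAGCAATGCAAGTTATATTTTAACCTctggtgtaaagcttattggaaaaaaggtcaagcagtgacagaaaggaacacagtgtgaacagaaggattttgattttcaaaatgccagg
Ugt2b (chr14:20985199-20985498): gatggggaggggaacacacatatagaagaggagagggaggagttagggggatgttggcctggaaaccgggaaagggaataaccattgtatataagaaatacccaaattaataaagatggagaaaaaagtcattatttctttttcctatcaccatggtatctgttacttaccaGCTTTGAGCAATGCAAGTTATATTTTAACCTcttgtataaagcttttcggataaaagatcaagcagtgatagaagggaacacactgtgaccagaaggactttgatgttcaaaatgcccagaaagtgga
The run began 82 bases before the start of Ugt2b15, 91 before Ugt2b35, 70 before Ugt2b37 and 78 before Ugt2b, and stood in these 4 of 27457 windows. Windows of Ugt2b15 and Ugt2b37 were 93.0% identical, those of Ugt2b15 and Ugt2b35 70.9%, and those of Ugt2b35 and Ugt2b37 67.5%. The Ugt2b window was 77.0% identical to that of Ugt2b37, 71.0% to Ugt2b15 and 64.3% to Ugt2b35. Ugt2b read 0.549, 0.802 and 0.703 in gastric samples, 0.757, 0.705 and 1.18 in duodenal samples and 0.775, 1.03 and 0.688 in jejunal samples. Ileal samples read 0.644, 0.538 and 0.660, and colonic samples 0.396, 0.433 and 0.325. It was called in the colon alone (-0.97 ± 0.29, adjusted p = 0.0217), and not without colon 1 (adjusted p = 0.058) or colon 3 (adjusted p = 0.0676).

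Motifs were searched on both strands of the windows of 31 members. The letters GTTAAT, part of the site of the gut and liver factor HNF1, stood in 6 of them (Sult2a2, Ugt1a1, Ugt1a2, Ugt1a6, Ugt2a3 and Ugt2b10), against 7.44% of all windows. The antioxidant response element core TGACNNNGC stood in 3 (Gstm5, Gstm7 and Gstp1), against 12.2%, and the dioxin response element core GCGTG in 5, against 30.9%.

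Ugt2a3 read 0.463, 0.508 and 0.315 in gastric samples, 0.907, 1.02 and 0.752 in duodenal samples and 1.06, 1.20 and 1.00 in jejunal samples. Ileal samples read 0.675, 0.682 and 0.448, and colonic samples 0.155, 0.213 and 0.332. This gene, whose human counterpart conjugates bile acids, had all colonic samples below the small bowel ones, with stomach 3 just below colon 3. The colon was 3.76-fold lower (-1.91 ± 0.36, adjusted p = 0.000936; -1.23 under normexp). In the stomach, where samples overlapped the ileal ones, the difference was -0.98 ± 0.29, adjusted p = 0.0162, a call that ended without stomach 3. Ugt2a1, known from olfactory epithelium, read 0.0272 to 0.121 over all samples and was not called.

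Ugt1a1 read 0.269, 0.292 and 0.323 in gastric samples, 0.943, 0.761 and 0.718 in duodenal samples and 0.714, 0.744 and 0.615 in jejunal samples. Ileal samples read 0.848, 0.966 and 0.844, and colonic samples 0.602, 0.678 and 0.632. Ugt1a1 is the enzyme that conjugates bilirubin. Gastric samples lay below all others, and the stomach was 2.68-fold below the small bowel (-1.42 ± 0.20, adjusted p = 4.15e-05), with no call in the other contrasts. Ugt1a6 read 0.310, 0.268 and 0.284 in gastric samples, 1.99, 1.42 and 0.796 in duodenal samples and 1.61, 0.783 and 1.40 in jejunal samples. Ileal samples read 0.775, 0.732 and 0.537, and colonic samples 1.96, 2.89 and 2.68. For this enzyme of planar phenols the gastric samples were again the lowest (-1.83 ± 0.28, adjusted p = 8.02e-05; -1.17 under normexp). The colon was 2.43-fold above the small bowel (1.28 ± 0.35, adjusted p = 0.0121), with colon 1 just below duodenum 1.

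Ugt1a2 read 6.90, 5.88 and 7.39 in gastric samples, 19.0, 11.7 and 14.8 in duodenal samples and 48.7, 15.0 and 20.6 in jejunal samples. Ileal samples read 6.20, 9.80 and 5.01, and colonic samples 17.0, 16.8 and 14.2. Ileal samples lay below all proximal ones (-1.64 ± 0.37, adjusted p = 0.0186), but the call ended without duodenum 1 (-1.48, adjusted p = 0.0956), ileum 1 (-1.57, adjusted p = 0.0683) or ileum 3, under normexp (-0.90, adjusted p = 0.106) and under quantile normalisation (-1.23, adjusted p = 0.0597). The stomach differed by -1.01 ± 0.32, adjusted p = 0.0253, with samples inside the small bowel range, and this call ended without stomach 1 or 2 and under quantile normalisation (-0.72, adjusted p = 0.0793). The other probe of the gene had -2.57 in the stomach and -0.93 in the ileum. As both probes may read several UGT1A transcripts, these differences may not be of Ugt1a2 alone. Ugt1a9-ps read 0.0491 to 0.229 and was not called.

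**Figure D2:**
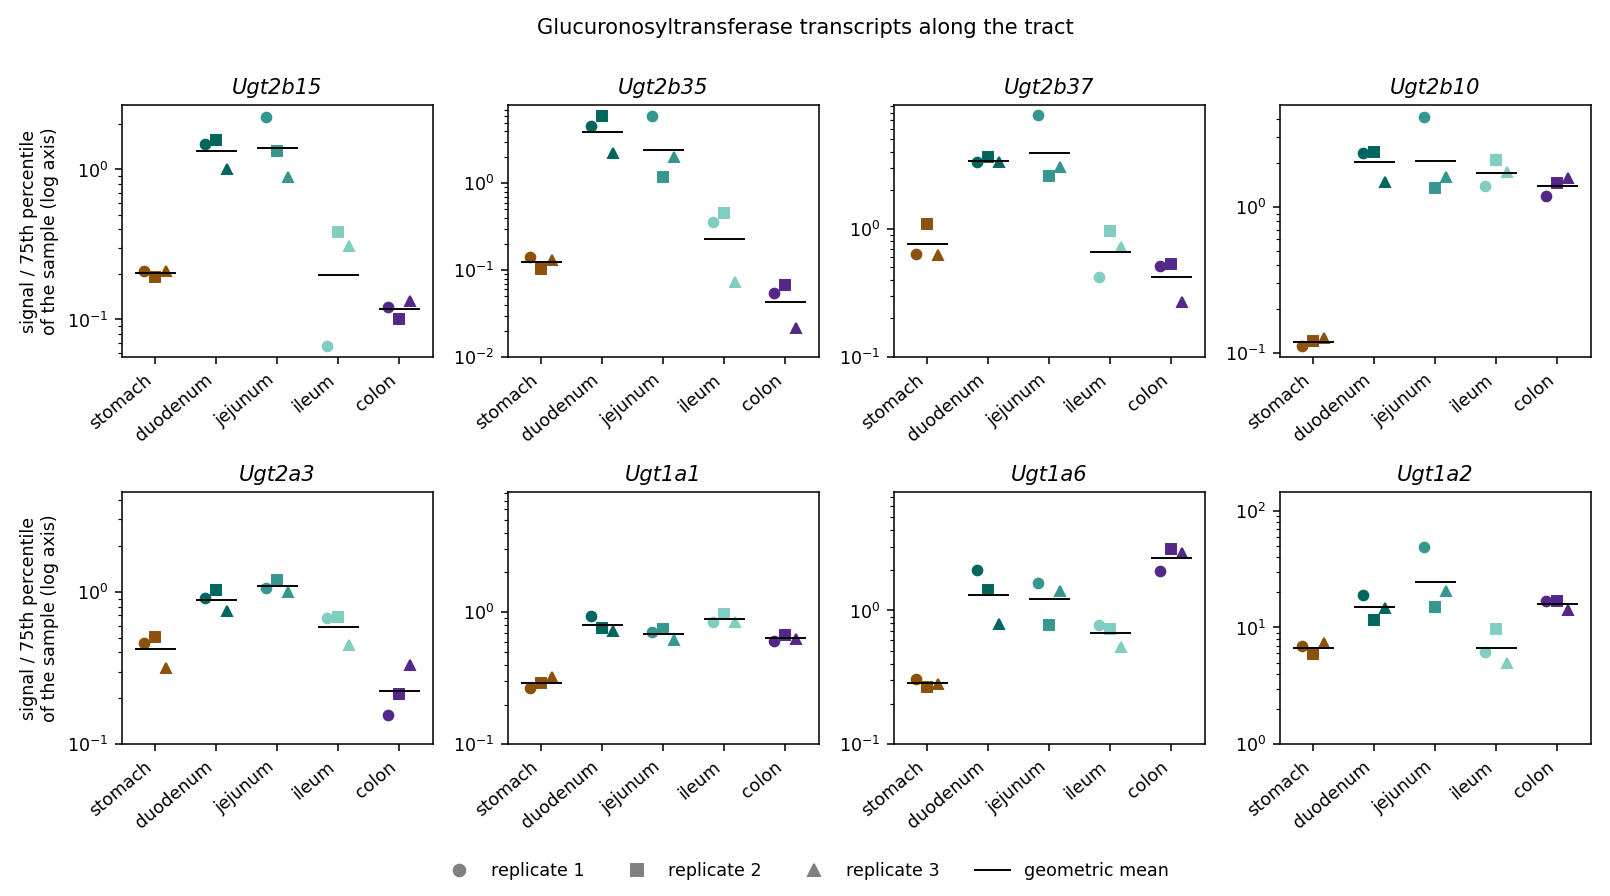
Relative signal (log axis, multiples of the sample's 75th percentile) of 8 UGT members in 5 segments; symbols are samples and lines geometric means of 3. Ugt2b15, Ugt2b35 and Ugt2b37 are high in the duodenum and jejunum, and Ugt2b10 is low in the stomach (0.113 to 0.128).

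Among 6 genes that supply, carry or use UDP-glucuronic acid or split glucuronides, 2 higher and 1 lower (median -0.36) were called in the stomach, 2 higher and 0 lower (median 0.47) in the colon and 1 higher and 0 lower (median -0.13) in the ileum. Of all genes, 27.3% were called in the stomach, 25.7% in the colon, 4.28% in the ileum and 0.555% between the duodenum and jejunum. These shares stand beside the later gene lists too. Ugdh, which makes UDP-glucuronic acid, was lower in the stomach (-1.92 ± 0.20, adjusted p = 1.15e-06) and higher in the colon (0.74 ± 0.25, adjusted p = 0.037). Ugp2, which makes UDP-glucose, was higher in the colon (0.99 ± 0.26, adjusted p = 0.0101), and the glucuronidase gene Gusb in the ileum (1.45 ± 0.32, adjusted p = 0.0168).

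Of the SULT genes, 5 of 11 were higher in gastric than in small bowel mucosa and 0 lower, against 15.5% and 11.8% of all genes. In the colon 6 were lower and 0 higher, against 13.2% and 12.5% of all genes. Rat SULT1C enzymes are known for acting on N-hydroxy arylamines. Sult1c3 read 18.1, 16.0 and 18.7 in gastric samples, 0.248, 0.152 and 0.313 in duodenal samples and 0.136, 0.239 and 0.347 in jejunal samples. Ileal samples read 0.262, 0.186 and 0.364, and colonic samples 0.147, 0.171 and 0.0628. Only the gastric samples were high, and 6 of 9 small bowel samples were well above background. The stomach was 74.1-fold above the small bowel (6.21 ± 0.37, adjusted p = 1.52e-09) on this probe, whose strand is opposite to that of the gene in RefSeq. Sult1c2a read 25.1, 18.9 and 25.1 in gastric samples, 3.91, 6.03 and 2.96 in duodenal samples and 0.590, 0.825 and 0.862 in jejunal samples. Ileal samples read 1.27, 1.68 and 1.76, and colonic samples 3.24, 3.42 and 2.76. The gastric samples again exceeded all others (13.5-fold; 3.76 ± 0.25, adjusted p = 4.7e-09), while the second probe of the gene had a log2 difference of 1.94. These were the 2 members highest in 1 segment, in each case the stomach, against 3.93% of all genes highest there and 7.63% highest in any segment.

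Sult1c2 read 7.74, 6.39 and 8.27 in gastric samples, 6.18, 7.28 and 4.02 in duodenal samples and 0.975, 0.829 and 0.885 in jejunal samples. Ileal samples read 1.08, 0.997 and 1.12, and colonic samples 0.860, 0.788 and 0.814. The duodenal samples overlapped the gastric ones and lay above all jejunal, ileal and colonic ones. The duodenum was 6.39-fold above the jejunum (2.68 ± 0.20, adjusted p = 8.74e-07), with log2 differences of 2.8, 2.9 and 2.28 within the 3 shared slides. The stomach was 4.24-fold above the small bowel (2.08 ± 0.20, adjusted p = 4.56e-07), and against the duodenum alone it differed by 0.38 ± 0.24, adjusted p = 0.28, not called. For Sult1c2a the duodenum was 5.34-fold above the jejunum (2.42 ± 0.24, adjusted p = 4.14e-05), with 2.18, 3.35 and 1.84 within slides, and the stomach was above the duodenum (2.51 ± 0.30, adjusted p = 9.49e-06). Both duodenal calls held without the pair scanned on another day, at 2.54 for Sult1c2 and 2.01 for Sult1c2a. Between the duodenum and jejunum the second probe of each gene had 4.13 for Sult1c2 and 2.07 for Sult1c2a, and in the stomach that of Sult1c2 had 3.82. Sult1c3 had -0.01 between the duodenum and jejunum (adjusted p = 0.999).

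Beside this, 4 of 4 gastric surface mucous markers were higher in the duodenum than in the jejunum (median 3.48), averaging 2.52 to 3.21 in duodenal and -0.85 to 0.44 in jejunal samples on the log2 scale. By limma 0 of 3 parietal markers (median -0.14) and 0 of 4 chief cell markers (median -0.24) were higher there. Their part in the Sult1c2 and Sult1c2a differences was not tested. Sult1c2 was also lower in the ileum than in the proximal segments (-1.10 ± 0.23, adjusted p = 0.0119, not called without duodenum 1). The ileum and jejunum differed by 0.24 ± 0.24, adjusted p = 0.616. It was lower in the colon than in the small bowel (-1.08 ± 0.25, adjusted p = 0.00447). By segment, the colon was 2.79 ± 0.28 below the duodenum (adjusted p = 2.29e-06), 0.34 below the ileum (adjusted p = 0.477) and 0.11 below the jejunum (adjusted p = 0.807).

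All 3 SULT2 members, enzymes of steroids, bile acids and cholesterol, were lower in the colon than in the small bowel, against 13.2% of all genes. Sult2a2 read 2.60, 2.81 and 2.15 in gastric samples, 1.59, 0.992 and 1.58 in duodenal samples and 1.49, 1.89 and 1.71 in jejunal samples. Ileal samples read 0.965, 0.715 and 0.471, and colonic samples 0.0779, 0.125 and 0.172. Colonic samples lay below all others, at 10.1-fold lower (-3.33 ± 0.36, adjusted p = 6.29e-06), and gastric samples above all others, at 2.15-fold higher (1.11 ± 0.29, adjusted p = 0.00854). The other 2 probes of the gene had -0.40 and -0.53 in the colon and 0.07 and 0.44 in the stomach, so both the colonic size and the gastric difference rest on the brightest probe. Among probes well above background in all samples, which used another probe, neither was called (-0.38, adjusted p = 0.266 in the colon and 0.07, adjusted p = 0.83 in the stomach). Under normexp the colon had -1.93. The gastric call also ended without stomach 1 or 2 and with the mean of all probes (0.54, adjusted p = 0.124). Sult2a1 read 0.564, 0.768 and 0.764 in gastric samples, 0.339, 0.239 and 0.466 in duodenal samples and 0.257, 0.441 and 0.434 in jejunal samples. Ileal samples read 0.319, 0.407 and 0.553, and colonic samples 0.173, 0.190 and 0.0991. The groups did not overlap in either contrast, at -1.34 ± 0.39, adjusted p = 0.018 in the colon (not called without colon 3, nor under normexp at -0.36, adjusted p = 0.186) and 0.90 ± 0.31, adjusted p = 0.0395 in the stomach, where the call ended when any 1 of 9 samples was left out and the difference was 0.52 under normexp. The lower hepatocyte markers in the colon stand beside the colonic SULT2 differences as well, while 0 of 5 were called in the stomach.

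Sult2b1 read 4.51, 5.60 and 3.84 in gastric samples, 4.46, 2.55 and 6.37 in duodenal samples and 4.60, 5.72 and 5.34 in jejunal samples. Ileal samples read 3.18, 5.21 and 3.54, and colonic samples 1.95, 1.87 and 2.34. This cholesterol and pregnenolone sulfotransferase was lower in all colonic samples than in any other (-1.08 ± 0.32, adjusted p = 0.0188; not called without colon 1). Sult5a1 read 0.276, 0.256 and 0.266 in gastric samples, 0.350, 0.180 and 0.360 in duodenal samples and 0.218, 0.349 and 0.384 in jejunal samples. Ileal samples read 0.286, 0.269 and 0.320, and colonic samples 0.127, 0.170 and 0.0868. Colonic samples were again the lowest (-1.25 ± 0.38, adjusted p = 0.0234; not called without colon 1 or colon 3, nor under normexp at -0.28, adjusted p = 0.311). Sult1d1 read 0.164, 0.206 and 0.195 in gastric samples, 0.220, 0.0260 and 0.148 in duodenal samples and 0.0376, 0.134 and 0.253 in jejunal samples. Ileal samples read 0.0608, 0.121 and 0.123, and colonic samples 0.0212, 0.0193 and 0.0355. No colonic sample was well above background for this gene, a catecholamine sulfotransferase in mouse, 6 of 9 small bowel samples were, and the groups overlapped. The colon was lower (-2.06 ± 0.69, adjusted p = 0.0372), by 2.51-fold with colonic samples raised to the lowest signal well above background. That fold is not a lower bound, since small bowel samples not well above background entered as measured. The Sult1d1 call ended when any 1 of 10 samples was left out, under quantile normalisation and under normexp, where the difference was 0.13, adjusted p = 0.736. The phenol sulfotransferase Sult1a1 (0.0668 to 0.326), Sult1b1 (5.31 to 25.3) and the brain form Sult4a1 (0.0442 to 0.282) had no call in the 4 contrasts.

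**Figure D3:**
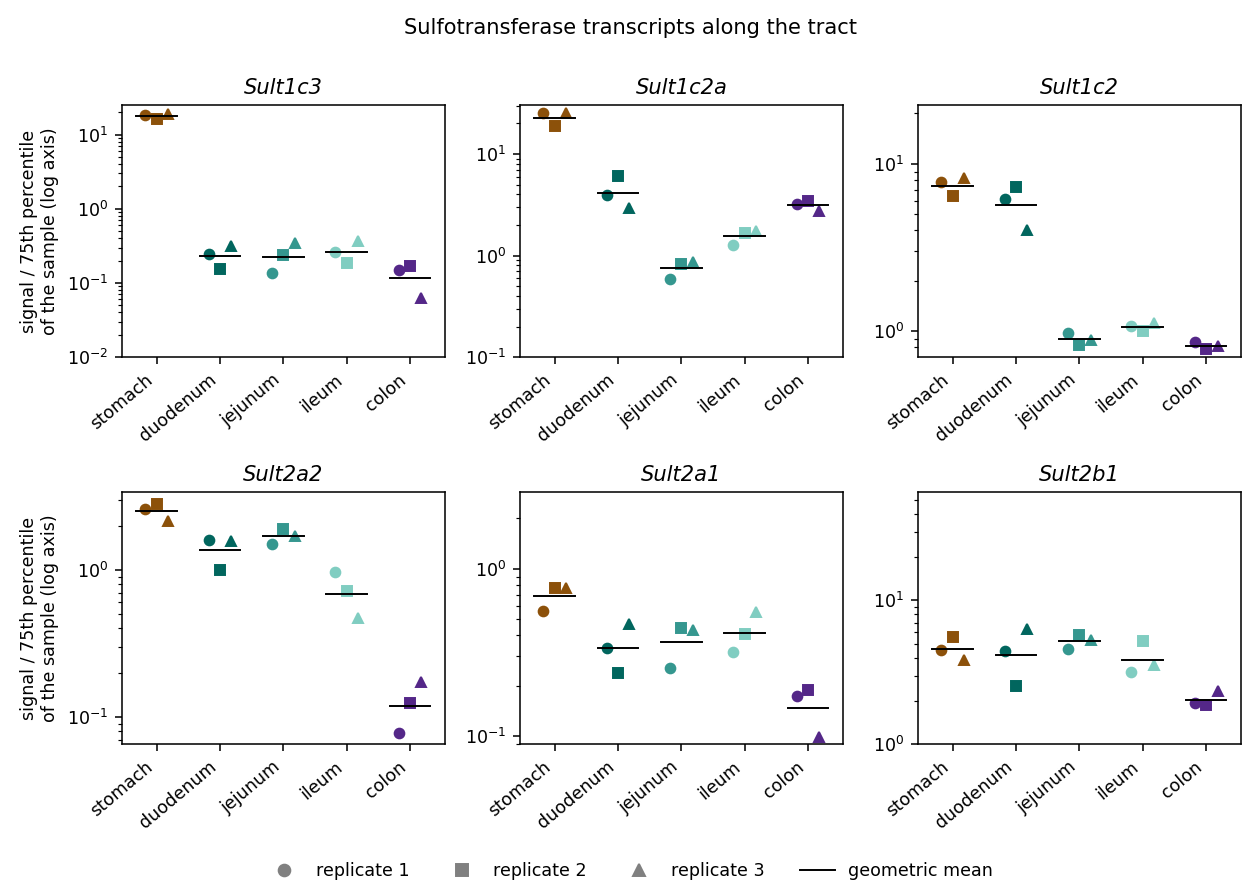
Relative signal (log axis, multiples of the sample's 75th percentile) of 6 SULT members in 5 segments; symbols are samples and lines geometric means of 3. Sult1c3 is high in gastric samples alone (16.0 to 18.7), Sult1c2 in gastric and duodenal samples, and Sult2a2, Sult2a1 and Sult2b1 are lowest in colonic samples.

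Among 11 genes of PAPS supply and sulphate handling, 2 higher and 4 lower (median -0.02) were called in the stomach, 6 higher and 1 lower (median 1.00) in the colon, 1 higher and 2 lower (median 0.16) in the ileum and 1 higher and 0 lower (median -0.03) in the duodenum against the jejunum. Papss2, a PAPS synthase, averaged 1.50 in gastric, 57.1 in duodenal, 72.3 in jejunal, 1.77 in ileal and 11.9 in colonic samples. It was lower in the ileum (-5.53 ± 0.57, adjusted p = 2.77e-05) and stomach (-3.40 ± 0.50, adjusted p = 5.66e-05). The other synthase, Papss1, was higher in the stomach (1.99 ± 0.18, adjusted p = 2.35e-07) and colon (2.10 ± 0.23, adjusted p = 5.1e-06). Bpnt1, which clears the spent donor, was lower in the ileum (-2.58 ± 0.37, adjusted p = 0.000725) and stomach (-2.06 ± 0.32, adjusted p = 9.94e-05).

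All 3 microsomal GSTs were lower in the stomach, against 11.8% of all genes. Mgst1 read 0.958, 0.880 and 0.889 in gastric samples, 8.73, 8.29 and 8.02 in duodenal samples and 8.25, 8.19 and 8.50 in jejunal samples. Ileal samples read 4.87, 8.67 and 7.76, and colonic samples 0.820, 0.925 and 1.07. Mgst1, which protects membranes from electrophiles and peroxides, was high in every small bowel sample and low at both ends of the tract. The stomach was 8.61-fold lower (-3.11 ± 0.20, adjusted p = 2.81e-09) and the colon 8.50-fold lower (-3.09 ± 0.25, adjusted p = 2.48e-07), while the ileum differed from the proximal segments by -0.24 (adjusted p = 0.593). Mgst2 read 7.38, 5.74 and 7.30 in gastric samples, 37.5, 27.7 and 34.8 in duodenal samples and 54.5, 33.5 and 43.4 in jejunal samples. Ileal samples read 16.8, 23.3 and 18.5, and colonic samples 21.6, 24.8 and 30.0. Gastric samples of this enzyme, which can make leukotriene C4, lay below all others (-2.16 ± 0.22, adjusted p = 1.19e-06). Mgst3 read 15.5, 10.2 and 13.3 in gastric samples, 69.1, 107 and 46.4 in duodenal samples and 67.0, 65.9 and 46.2 in jejunal samples. Ileal samples read 18.9, 31.3 and 26.8, and colonic samples 54.6, 63.8 and 67.9. Its gastric samples were below all others too (-1.87 ± 0.27, adjusted p = 4.23e-05), and the second probe had -1.93. Ileal samples lay below all proximal ones for both, at -0.93 ± 0.26, adjusted p = 0.0491 for Mgst2 and -1.38 ± 0.31, adjusted p = 0.0177 for Mgst3. The Mgst2 call ended when any 1 of 13 samples was left out, and the difference was 0.13, adjusted p = 0.828 under normexp and -0.25, adjusted p = 0.574 under quantile normalisation. The Mgst3 call ended without duodenum 1 (adjusted p = 0.0777), ileum 1 (adjusted p = 0.0786) or ileum 3 (adjusted p = 0.0601). Its difference was -0.19, adjusted p = 0.79 under normexp and -0.52, adjusted p = 0.273 under quantile normalisation.

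Of the 13 remaining GST members, 2 were higher and 3 lower in the stomach, 3 higher and 1 lower in the colon, and 0 higher and 2 lower in the ileum. Calls in these contrasts came to 38.5%, 30.8% and 15.4% of the 13, against 27.3%, 25.7% and 4.28% of all genes. Gstm6 read 0.0749, 0.0601 and 0.0598 in gastric samples, 0.221, 0.236 and 0.180 in duodenal samples and 0.313, 0.254 and 0.377 in jejunal samples. Ileal samples read 0.247, 0.650 and 0.551, and colonic samples 1.06, 1.01 and 0.872. For this mu-class gene gastric samples were below all others (-2.25 ± 0.29, adjusted p = 1.73e-05; -1.48 under normexp) and colonic samples above all others (1.66 ± 0.37, adjusted p = 0.00343). Gstm1 read 2.07, 2.01 and 2.12 in gastric samples, 1.50, 2.60 and 1.56 in duodenal samples and 1.43, 1.42 and 1.09 in jejunal samples. Ileal samples read 0.854, 0.756 and 0.798, and colonic samples 0.504, 0.470 and 0.816. Another mu-class gene, it was lower in the colon (-1.13 ± 0.30, adjusted p = 0.0107; not called without colon 1) and higher in the stomach (0.74 ± 0.24, adjusted p = 0.0296), a call that ended without duodenum 1 or any 1 stomach sample. Gstm7 read 1.11, 1.06 and 1.26 in gastric samples, against 0.364 to 1.01 in small bowel samples, and was higher in the stomach (0.92 ± 0.29, adjusted p = 0.0256), a call that also ended when any 1 gastric sample was left out.

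Gstm5 read 0.407, 0.365 and 0.454 in gastric samples, 0.485, 0.906 and 0.334 in duodenal samples and 0.201, 0.391 and 0.511 in jejunal samples. Ileal samples read 0.596, 1.24 and 1.32, and colonic samples 2.80, 2.53 and 3.16. Colonic samples lay above all others on this probe (2.21 ± 0.45, adjusted p = 0.00186). This probe lies on the plus strand in the files, as the gene does in RefSeq (GRCr8). The other 2 probes of the name lie on the minus strand and had 0.45 and -1.58 in the colon. Which probes read the Gstm5 transcript was not tested. The probes disagreed in size and direction, and with the mean of all 3 the gene was not called (0.35, adjusted p = 0.431).

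Gstp2 read 41.8, 38.0 and 44.1 in gastric samples, 113, 116 and 73.6 in duodenal samples and 141, 60.5 and 109 in jejunal samples. Ileal samples read 21.6, 44.9 and 40.8, and colonic samples 89.3, 92.4 and 103. RefSeq lists this name as an older one of Gstp1, the pi-class enzyme of many epithelia, and the probes of the 2 names lay 1683 bases apart. Ileal samples lay below all proximal ones (-1.50 ± 0.31, adjusted p = 0.0118), but the call ended without duodenum 1 (-1.37, adjusted p = 0.0729) or ileum 1 (-1.18, adjusted p = 0.0567). It was not called under normexp (-0.02, adjusted p = 0.982) or quantile normalisation (-0.23, adjusted p = 0.719). Gstp1 read 8.76, 7.15 and 7.69 in gastric samples, 29.0, 27.9 and 18.7 in duodenal samples and 12.8, 18.2 and 19.1 in jejunal samples. Ileal samples read 7.09, 14.5 and 14.7, and colonic samples 19.8, 19.4 and 25.0. It was lower in the stomach (-1.09 ± 0.26, adjusted p = 0.00383), where samples overlapped ileum 1. Gstt2 read 6.07, 4.57 and 5.58 in gastric samples, 6.33, 8.05 and 5.37 in duodenal samples and 5.09, 3.90 and 4.98 in jejunal samples. Ileal samples read 2.54, 2.84 and 2.40, and colonic samples 11.0, 11.7 and 6.32. The theta-class gene was higher in the colon (1.14 ± 0.29, adjusted p = 0.00881; not called without colon 1) and lower in the ileum (-1.09 ± 0.27, adjusted p = 0.0292; not called without duodenum 1, stomach 1 or any 1 ileal sample). Its second probe had -0.19 in the colon and -0.15 in the ileum, and with the mean of both probes neither was called (0.47, adjusted p = 0.186 in the colon and -0.61, adjusted p = 0.157 in the ileum). Quantile normalisation ended the colonic call (0.66, adjusted p = 0.0845) and normexp the ileal one (-0.82, adjusted p = 0.123). Gsto1, which reduces dehydroascorbate, read 7.24, 6.52 and 7.87 in gastric samples, against 7.56 to 16.3 in small bowel samples, and was lower in the stomach (-0.74 ± 0.23, adjusted p = 0.0215), a call that ended when any 1 gastric sample was left out, under normexp (-0.65, adjusted p = 0.0803) and under quantile normalisation (-0.50, adjusted p = 0.105).

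**Figure D4:**
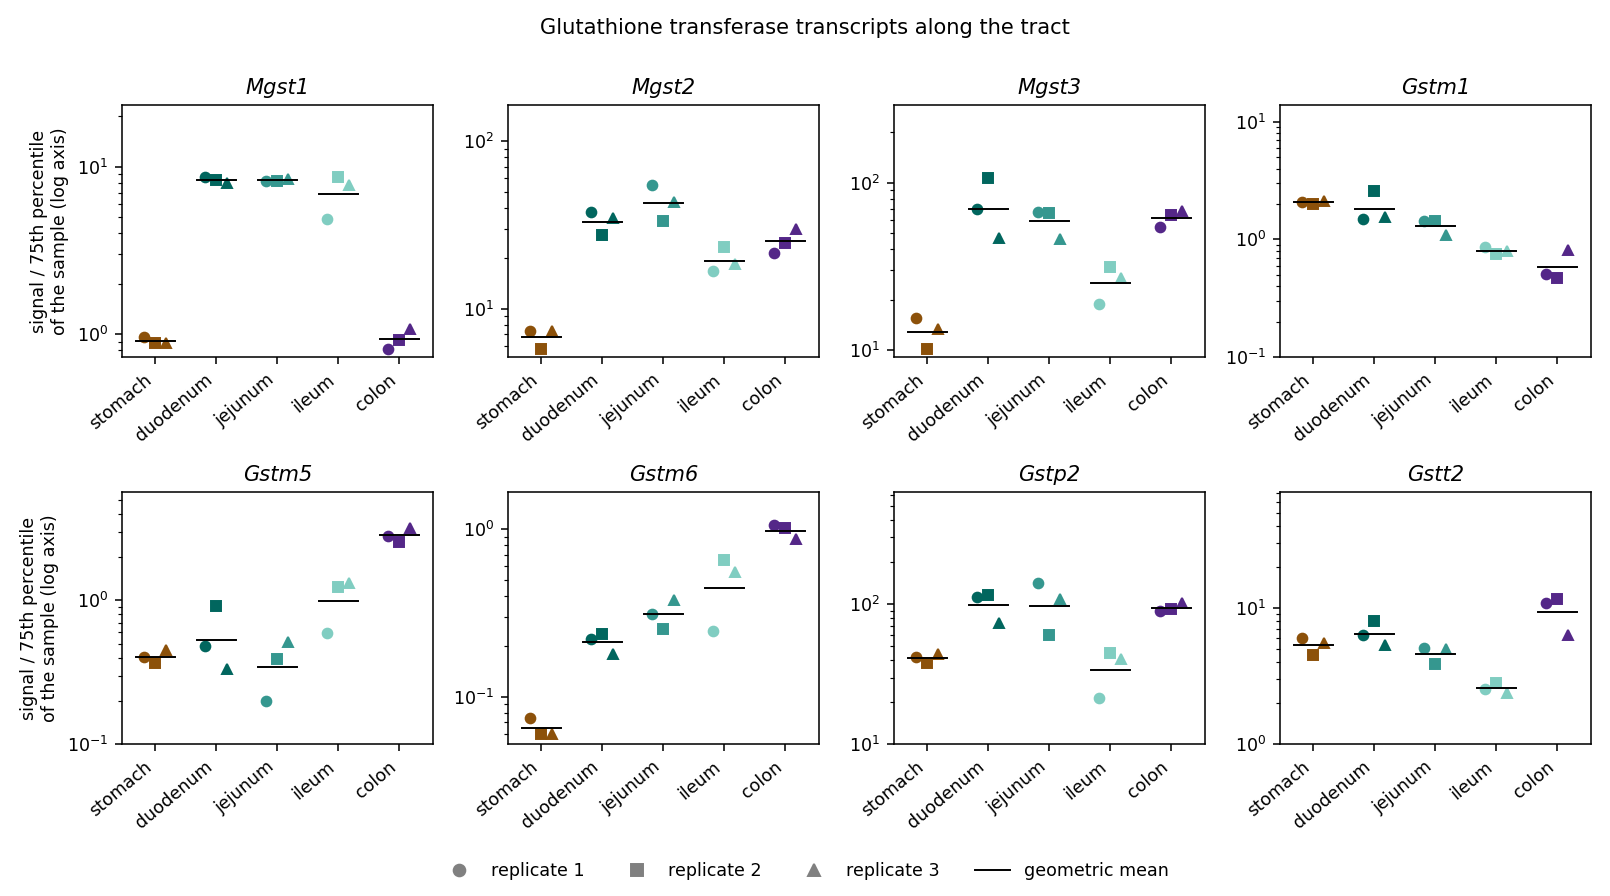
Relative signal (log axis, multiples of the sample's 75th percentile) of 8 GST members in 5 segments; symbols are samples and lines geometric means of 3. Mgst1 is high in all small bowel samples (4.87 to 8.73) and low in gastric and colonic ones, and Gstm6 is lowest in gastric and highest in colonic samples.

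Among 18 genes of glutathione synthesis, recycling and breakdown, 1 higher and 6 lower (median -0.37) were called in the stomach, 1 higher and 1 lower (median 0.34) in the colon and 1 higher and 1 lower (median -0.15) in the ileum. Gclm, a subunit of the first enzyme of glutathione synthesis, was higher in the stomach (3.50 ± 0.51, adjusted p = 5.73e-05), and Gss, the second enzyme, lower (-2.54 ± 0.21, adjusted p = 8.1e-08). Ggt1, which breaks glutathione conjugates down, was lower in the stomach (-2.47 ± 0.43, adjusted p = 0.000343) and colon (-2.26 ± 0.54, adjusted p = 0.00594). Of 6 glutathione peroxidases 4 higher and 1 lower (median 1.34) were called in the stomach, 3 higher and 0 lower (median 1.02) in the colon and 2 higher and 0 lower (median 0.74) in the ileum.

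Among 8 genes for export of conjugates, which include the transporter subunits Slc51a and Slc51b beside the pumps, 2 higher and 4 lower (median -1.10) were called in the stomach, 2 higher and 2 lower (median -0.34) in the colon and 1 higher and 1 lower (median 0.31) in the ileum. The apical pump Abcg2 was lower in the stomach (-6.24 ± 0.41, adjusted p = 5.37e-09), and Abcc2, which exports glucuronides and glutathione conjugates, lower in the ileum (-1.26 ± 0.32, adjusted p = 0.0325). Of 13 genes of other conjugation reactions and of prostaglandin and leukotriene synthesis, 0 higher and 5 lower (median -0.58) were called in the stomach, 2 higher and 5 lower (median -0.83) in the colon and 1 higher and 0 lower (median -0.30) in the ileum. Hnmt, which methylates histamine, was lower in the stomach (-8.08 ± 0.25, adjusted p = 5.68e-13), and at least 222-fold lower in the colon (adjusted p = 1.62e-11).

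Among 20 genes of transcription factors that act on conjugation genes or of their regulators, 2 higher and 7 lower (median -0.42) were called in the stomach, 4 higher and 2 lower (median -0.09) in the colon, 1 higher and 3 lower (median -0.13) in the ileum and 1 higher and 1 lower (median -0.03) in the duodenum against the jejunum. The intestinal factor Cdx2 was lower in the stomach (-5.67 ± 0.20, adjusted p = 2.74e-12) and higher in the colon (1.87 ± 0.25, adjusted p = 5.16e-05). Nfe2l2, the NRF2 factor of the antioxidant response, was lower in the ileum (-1.41 ± 0.22, adjusted p = 0.00156) and higher in the duodenum than in the jejunum (0.99 ± 0.19, adjusted p = 0.0207). Of 12 NRF2 target genes outside the members, 1 higher and 5 lower (median -0.64) were called in the stomach, 0 higher and 2 lower (median 0.10) in the colon and 0 higher and 2 lower (median -0.57) in the ileum. Of 6 targets of the aryl hydrocarbon receptor, 1 higher and 2 lower (median 0.00) were called in the stomach, 0 higher and 3 lower (median -0.99) in the colon and 0 higher and 1 lower (median -0.37) in the ileum.

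In none of the 4 contrasts did limma call Ugt1a9-ps, Ugt2a1, Ugt2b5, Sult1a1, Sult1b1, Sult4a1, Gstm2, Gstm3, Gstt1, Gsto2 or Gstk1 (11 members). Its F test over the segments called Sult1b1 (adjusted p = 0.00706), Gstm2 (adjusted p = 0.0183) and Gstm3 (adjusted p = 0.0352). Gstm2 read 0.765 to 2.27, Gstm3 0.945 to 2.69, and the mitochondrial GST gene Gstk1 1.21 to 5.85 over all samples. Gstt1 read 0.0648 to 0.447, and Gsto2 0.0369 to 0.230.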

How the data were processed

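RNA of 15 mucosal samples was labelled with 1 dye each, and only that channel was used. The deposited intensities are processed signals of the scanner software, background-subtracted and dye-normalised per the file headers. The deposited value table matched them within 0.02 log2 for 100.0% of spots.

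Intensities were taken to log2, spots flagged as outliers were left out, and each sample's 75th percentile was subtracted. Genes entered when a probe was well above background throughout at least 1 segment. Of 41012 probes, 10735 were named by accession, 5571 by current and 3675 by older symbol, and 21031 kept the file's name (RefSeq, GRCr8). Limma 3.58.1 in R 4.3.3 fitted segment and dye with an intensity trend and treated slide as a random effect (correlation 0.361), leaving 9 residual degrees of freedom; tests were two-sided. It called 0 genes for the dye at the threshold. Where no sample on the lower side was well above background, a fold is taken against the lowest signal well above background. It is a lower bound only where the other side was well above background. Members called with a log2 difference of at least 1 are described in full, and up to 3 called genes per list and contrast could be named. Members, lists and tests were chosen with earlier results of these data known. Alternatives changed background correction, scaling, filter, probe choice, flags, dye term, blocks, trend and samples; normexp (offset 50) used median signals, since the colon files used here hold no mean signals. The number of arrays limits the precision.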

Additional observations from a re-analysis of the deposited data

How the results depend on the processing

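Of 49 single calls, 26 held under every alternative, and 4 of 1556 alternative values changed sign. Gstm5 in the colon was -1.41 under quantile normalisation and -1.54 among probes well above background in all samples, both of which used another probe. Under normexp Sult1d1 in the colon was 0.13 and Mgst2 in the ileum 0.13; the cause was not tested. Ileum calls (9) numbered 3 with small bowel samples alone, 5 under quantile normalisation and 4 with the replicate block, and stomach calls (21) 13 with scan day as random block. Members highest in 1 segment (2) numbered 4 without the dye term, 5 without the slide block, 6 under normexp and 1 among probes well above background in all samples. Leaving out 1 sample gave 15 to 22 stomach, 11 to 21 colon, 3 to 11 ileum and 2 to 3 duodenum calls, 24 to 29 by the F test and 2 to 3 highest in 1 segment. Averaging colon 2 and 3, which may be 1 sample, an alternative chosen after seeing the data, left 16 colon calls, and averaging colon 1 and 2 left 16. Colon calls were 7 higher and 10 lower under normexp and 2 and 14 under quantile normalisation, against 4 and 13 as reported. Ileum calls were 1 higher and 8 lower under normexp, but these were not the same members as the 9 reported. Ugt1a2, Gstp2, Gstt2, Mgst2 and Mgst3 were not called there under normexp, and other members were. Normexp moved the median of all genes to -0.06 in the stomach and 0.33 in the colon. Same-numbered samples had deviations correlating at -0.42 to 0.29, which showed no pairing by number. Duodenal and jejunal samples of 1 slide, which carry different numbers, correlated at 0.49 to 0.55. With such slide effects present, the check cannot exclude that the numbers pair samples. Signals near background limit the size of the differences of Ugt2b35 and Sult1d1 in the colon.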

Other observations

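The array held 8 more genes of these families under other names and so outside the rule; they were picked out after the data were seen. Sult1c2al1 read 3.71, 3.07 and 3.84 in gastric samples, 0.771, 1.31 and 0.575 in duodenal samples and 0.123, 0.126 and 0.102 in jejunal samples. Ileal samples read 0.341, 0.128 and 0.187, and colonic samples 0.135, 0.149 and 0.105. The SULT1C gene was higher in gastric than in small bowel mucosa (3.71 ± 0.32, adjusted p = 1.33e-07 by limma) and in the duodenum than in the jejunum (2.85 ± 0.31, adjusted p = 0.000115), with 2.91, 3.41 and 2.19 within the 3 shared slides. Ugt2b7 read 2.12, 2.17 and 2.32 in gastric samples, 29.7, 25.3 and 22.0 in duodenal samples and 11.6, 7.06 and 4.53 in jejunal samples. Ileal samples read 1.09, 1.08 and 1.12, and colonic samples 0.423, 0.617 and 0.870. For this UGT2B gene no segment overlapped another. The ileum was below the proximal segments (-3.69 ± 0.33, adjusted p = 5.46e-06), the colon (-3.22 ± 0.36, adjusted p = 8.22e-06) and stomach (-1.41 ± 0.29, adjusted p = 0.00129) below the small bowel, and the duodenum above the jejunum (1.86 ± 0.28, adjusted p = 0.00369). Gstm4 (-1.06 ± 0.20, adjusted p = 0.000645) and Gstt3 (-1.09 ± 0.25, adjusted p = 0.00315) were lower in the stomach, and Gstp3 was higher in the colon (0.87 ± 0.29, adjusted p = 0.0331). By limma Sult1e1, Sult2a6 and Ugt2b1 were not called in the 4 contrasts.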
